A study of Mus musculus with 60 samples.

Results

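The genes described here encode the machinery that loads, docks, fuses and recycles synaptic vesicles. They are 58 named genes, chosen by symbol from the synaptotagmins, the SNARE proteins and their regulators, the active zone scaffolds, the Rab3 proteins, the vesicle membrane proteins and synapsins, the vesicular glutamate transporters and 2 endocytic proteins, out of 21911 protein-coding genes. A member's peaks were all peaks whose assigned symbol was that gene, in each of 12 lists. H4K8ac, a histone acetylation of active chromatin, gave 1238 such peaks of 155961, and H3K27me3, a methylation laid down by Polycomb at silenced genes, gave 292 of 100414.

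The nuclei came from the hippocampus of male Emx1-NuTRAP mice, in which Emx1-driven Cre switches on a nuclear and a ribosomal tag. Emx1 marks the lineage of cortical and hippocampal excitatory neurons, and its Cre can also act in some glia. The exercised mice (early-life exercise, ELE) could use a wheel in the cage between postnatal days 21 and 41, and the sedentary mice lived in standard cages over the same days. Every animal of both conditions carried the same transgenes. CUT&RUN-seq was run on nuclei isolated alongside ribosome-bound RNA from both hippocampi (SIT), or isolated without RNA from one side only, left or right. These 3 isolations are called arms. The labels give 4 samples for each mark and condition in SIT and 3 in each of the other arms, and each deposited list stands for 1 such group, with no height, count or replicate behind a peak. Each list is therefore 1 unit, no p-value was computed, and a gene is called listed when it has at least 1 peak. The read depth of each library is not given in the sources used here, beyond the minimum the study aimed for, and a peak that is missing was not detected at that depth, which is not the same as the mark being absent.

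Release begins when calcium entering the terminal binds a synaptotagmin on a vesicle that has already been docked and primed. Docking and priming are the work of RIM, Munc13, Bassoon, Piccolo and ELKS proteins at the active zone, and fusion is driven by the zippering of synaptobrevin, syntaxin and SNAP-25, with complexin as a clamp and tomosyn as an inhibitor. Hippocampal pyramidal and granule cells fill their vesicles with glutamate through VGLUT1, whereas VGLUT2 is typical of subcortical neurons and VGLUT3 of a few scattered cell groups.

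The lists held between 9899 and 38136 peaks. In H4K8ac the exercised list was the longer one in SIT (38136 against 30358 peaks) and the shorter one in the left (12168 against 36425) and right arms (13715 against 25159). In H3K27me3 it was longer in SIT (25693 against 10279) and left (18262 against 14491) and shorter in the right arm (9899 against 21790). Per the study's methods, some exercised H4K8ac libraries were left out for a high false discovery rate, more of them from the separate arms, whose exercised lists are the shortest of that mark, than from SIT. The study also dropped samples of both conditions, sedentary ones for the content of their RNA, and it gives fewer sedentary than exercised mice for its peak comparison, without saying whether the deposited lists follow this. Fewer libraries than the labels name may therefore stand behind lists of either condition, the SIT sedentary ones included, and the part that library number and depth play in list length was not tested. Of 8 markers of excitatory neurons, between 5 and 8 were listed for H4K8ac and 5 were listed in all 6 lists (Emx1, Neurod2, Neurod6, Camk2a and Tbr1). Of 8 markers of inhibitory neurons, between 0 and 2 were listed for H4K8ac and between 6 and 7 for H3K27me3. For H3K27me3, between 2 and 3 of the excitatory markers were listed. Of the glial and vascular markers, H4K8ac lists held 1 to 5 of 5 for astrocytes, 1 to 3 of 5 for oligodendrocytes, 1 to 2 of 5 for microglia and 1 of 3 for endothelium, and H3K27me3 lists held 3 to 4, 1 to 2, 1 to 2 and 2. No H4K8ac peak was listed at 5 of the inhibitory markers (Gad2, Slc32a1, Pvalb, Lhx6 and Dlx1), at Olig2 and Sox10, at Cx3cr1 and Tmem119, or at Cldn5 and Flt1. In contrast Aqp4 of astrocytes, Mbp of oligodendrocytes, P2ry12 of microglia and Pecam1 of endothelium had H4K8ac in all 6 lists, and no astrocyte marker was without it. Nuclei of other cell types in the preparation were not tested for a part in the members' peaks.

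Across the 58 members, 39 had H4K8ac peaks only, 13 had peaks of both marks, 4 had H3K27me3 peaks only, and 2 had neither. Over all protein-coding genes the shares were 36.9% with H4K8ac alone, 15.2% with both, 12.9% with H3K27me3 alone and 35% with neither. The 4 genes with H3K27me3 alone were Syt9, Cplx3, Rims3 and Slc17a8. The 2 without a peak of either mark were Stx1a, the syntaxin of the release complex, and Syp, the abundant vesicle protein synaptophysin. No peak of any gene lay over Stx1a or Syp or within 3 kb upstream of them, in any of the 12 lists.

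**Figure D1:**
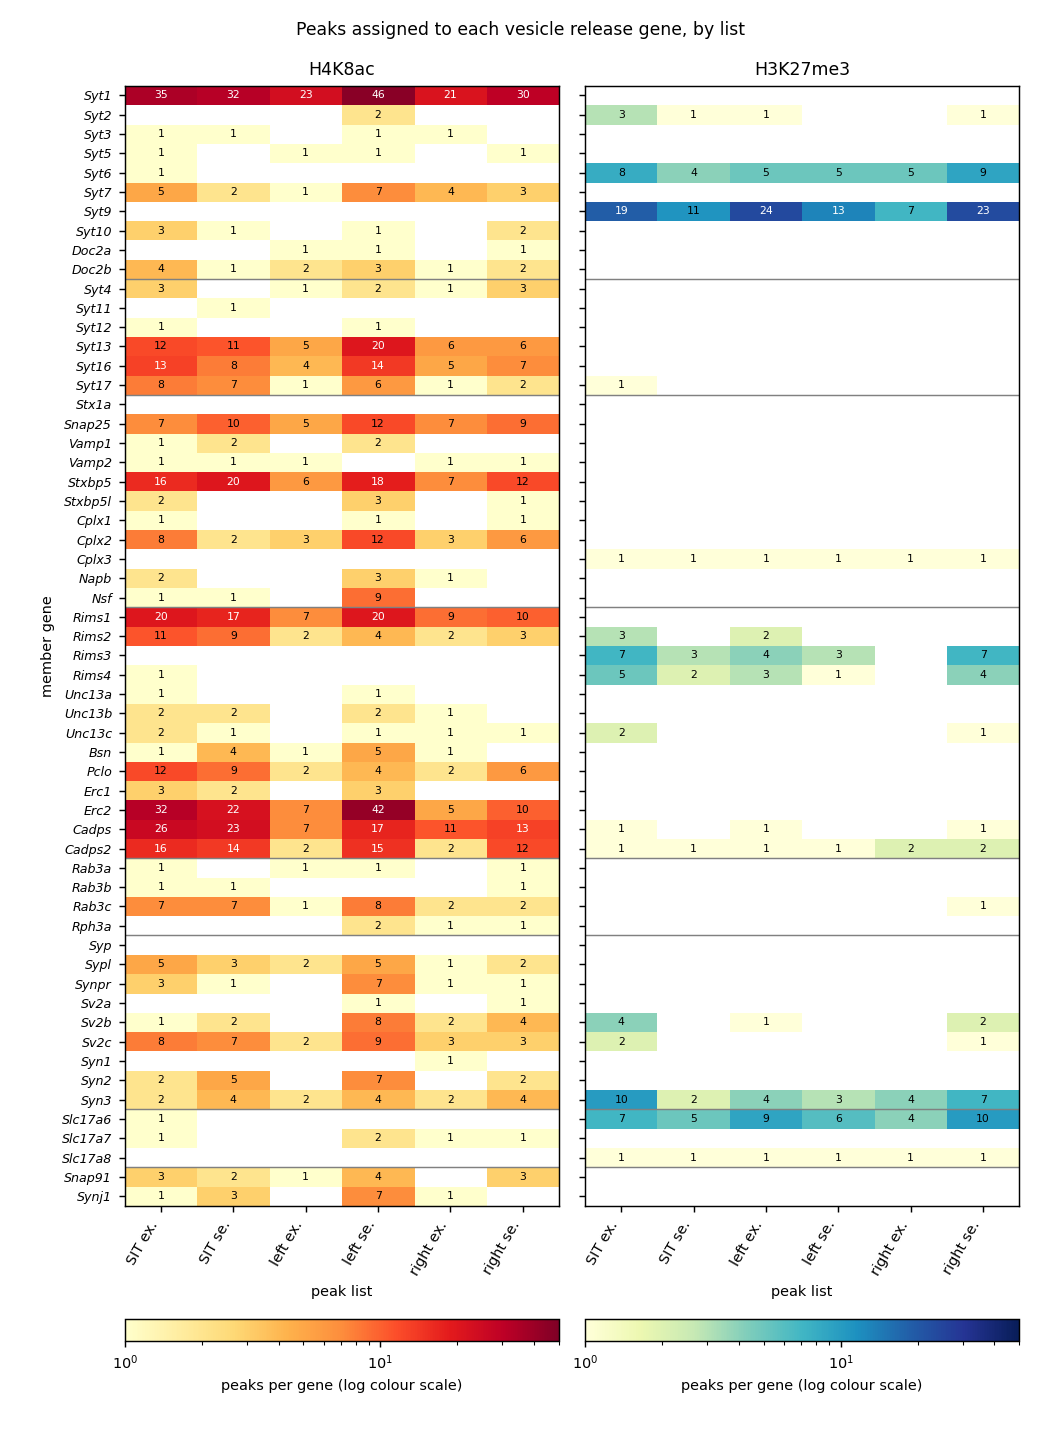
Number of peaks assigned to each of the 58 genes (rows, grouped by role) in each of the 12 lists (columns; ex., exercised; se., sedentary), with the count written in each coloured cell and white for none. Most genes are filled on the H4K8ac side and empty on the H3K27me3 side, whereas Syt9, Cplx3, Rims3 and Slc17a8 are filled only for H3K27me3.

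By list, H4K8ac was found at 46 members in exercised and 35 in sedentary mice in SIT, against 41.2 and 32.8% of all protein-coding genes. The counts were 26 and 45 in the left arm, against 19.6 and 39.4%, and 32 and 36 in the right arm, against 22.1 and 31.6%. In each of the 6 lists a larger share of the members than of all genes carried the acetylation. For H3K27me3 they were 16 and 10 in SIT, against 24.6 and 14.5%, 13 and 9 in the left arm, against 19.8 and 17.7%, and 7 and 15 in the right arm, against 13.3 and 23.0%. The members' share with methylation lay near that of all genes in every list.

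H4K8ac was listed at 19 of the 58 members in all 6 lists of that mark, against a background of 12.4% of all protein-coding genes, and at 52 members in at least 1 list, against 52.0%. H3K27me3 was listed at 7 members in all 6 lists, against 10.7%, and at 17 in at least 1 list, against 28.1%. The members are long genes, with a median of 65.9 kb against 17.4 kb over all genes, and longer genes collect more peaks. Among genes over 100 kb, 12 of 23 members had H4K8ac in all 6 lists against 40.7% of such genes. Among those of 25 to 100 kb, 6 of 24 members did so against 14.7%, and of the shorter ones 1 of 11 against 5.98%. For H3K27me3 in at least 1 list the counts were 10 of 23 members against 41.7%, 6 of 24 against 30.8%, and 1 of 11 against 24.2%. For H3K27me3 in all 6 lists they were 3 of 23 against 19.2%, 3 of 24 against 12.1%, and 1 of 11 against 8.4%. By assigned peaks the share of members with H4K8ac in all 6 lists lay above that of genes of similar length in each of the 3 classes, on 1 member in the shortest. For H3K27me3 the order changed with the class and with the number of lists asked for. Peaks stood over the gene or its 3 kb upstream in only 5 H4K8ac lists at Cplx2, that short member, and at Syt13, Syt17 and Sypl, and in 0 at Doc2b. By that count 16 members had H4K8ac in all 6 lists, against 10.3% of all genes, and the length classes were not compared.

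The 3 vesicular glutamate transporters differed in the mark they carried. Slc17a7, which encodes VGLUT1, had H4K8ac in 4 of 6 lists and H3K27me3 in none. Its H4K8ac peaks numbered 1 in SIT exercised, 0 in SIT sedentary, 0 and 2 in the left arm (exercised, then sedentary; pairs of values below keep this order, with SIT before left before right) and 1 and 1 in the right arm. All 5 were promoter peaks. Of these, 4 lay between 0.3 and 1.7 kb downstream of the start site and 1, in left sedentary, lay 0.4 kb upstream, so that the start site itself was in none.

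Slc17a8, which encodes VGLUT3, had exactly 1 H3K27me3 peak in each of the 6 lists and no H4K8ac peak. These peaks covered 3.9 and 4.1 kb in SIT, 5.7 and 3.5 kb in the left arm and 3.9 and 3.7 kb in the right arm, and all of them contained the start site. The stretch shared by all 6 lists ran from chr10:89619838 to 89622782 (mm10). Cplx3 was the other member with exactly 1 peak of a mark in each of its 6 lists.

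Slc17a6, which encodes VGLUT2, had 41 H3K27me3 peaks, with 7 and 5 in SIT, 9 and 6 in the left arm and 4 and 10 in the right arm. They covered 55.8 and 42.8 kb in SIT, 36.2 and 31.2 kb in the left arm and 10 and 50.5 kb in the right arm. Only 8 of the 41 lay in the gene or its 3 kb of upstream sequence; 20 of the others lay over Ano5, the neighbour upstream, and 13 were intergenic. A single H4K8ac peak of 1163 bp, in SIT exercised, lay in its 3′ UTR, 31.7 kb from the nearest annotated start. In the drawing of peak positions, the methylated bases of Slc17a6 formed 3 blocks found in all 6 lists, of which only the last, chr7:51617782 to 51632041, held the start site of the gene.

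The sequences around the start sites of the transporters are shown here because the 3 paralogues differ in the mark they carry, and Cplx3, Syt6 and Rims1 are added as members whose window was marked in all 6 lists. Each line holds 250 bases before to 50 after an annotated start (RefSeq, GRCm38.p6), 5′ to 3′ on the coding strand, with CpG dinucleotides in capitals. For genes with several windows the one touched by the most lists was taken, or the first by position.
Slc17a7 (VGLUT1, chr7:45163671-45163970, + strand): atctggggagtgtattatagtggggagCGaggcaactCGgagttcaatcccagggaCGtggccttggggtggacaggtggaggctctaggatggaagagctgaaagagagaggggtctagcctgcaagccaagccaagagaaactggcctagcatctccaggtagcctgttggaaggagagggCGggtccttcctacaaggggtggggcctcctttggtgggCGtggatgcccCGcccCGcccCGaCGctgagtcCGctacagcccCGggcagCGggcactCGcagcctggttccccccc
Slc17a6 (VGLUT2, chr7:51621580-51621879, + strand): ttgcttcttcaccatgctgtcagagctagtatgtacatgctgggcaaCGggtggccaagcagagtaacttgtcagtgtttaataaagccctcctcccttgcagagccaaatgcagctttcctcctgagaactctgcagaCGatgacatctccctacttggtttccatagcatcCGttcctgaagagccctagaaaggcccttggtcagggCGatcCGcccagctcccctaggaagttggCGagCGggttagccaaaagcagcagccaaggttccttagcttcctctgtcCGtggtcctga
Slc17a8 (VGLUT3, chr10:89621200-89621499, - strand): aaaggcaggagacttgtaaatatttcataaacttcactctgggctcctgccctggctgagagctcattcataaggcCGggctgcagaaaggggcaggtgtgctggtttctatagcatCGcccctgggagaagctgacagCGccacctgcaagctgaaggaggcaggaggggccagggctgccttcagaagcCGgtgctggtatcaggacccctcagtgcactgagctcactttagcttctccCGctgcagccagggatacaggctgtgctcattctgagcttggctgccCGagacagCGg
Cplx3 (chr9:57606232-57606531, - strand): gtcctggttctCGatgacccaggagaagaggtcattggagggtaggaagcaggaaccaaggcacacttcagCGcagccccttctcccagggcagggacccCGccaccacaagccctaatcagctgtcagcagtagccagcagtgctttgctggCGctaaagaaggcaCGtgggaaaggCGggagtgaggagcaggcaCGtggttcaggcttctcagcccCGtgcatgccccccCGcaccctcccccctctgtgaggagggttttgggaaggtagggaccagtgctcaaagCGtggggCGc
Syt6 (chr3:103574995-103575294, + strand): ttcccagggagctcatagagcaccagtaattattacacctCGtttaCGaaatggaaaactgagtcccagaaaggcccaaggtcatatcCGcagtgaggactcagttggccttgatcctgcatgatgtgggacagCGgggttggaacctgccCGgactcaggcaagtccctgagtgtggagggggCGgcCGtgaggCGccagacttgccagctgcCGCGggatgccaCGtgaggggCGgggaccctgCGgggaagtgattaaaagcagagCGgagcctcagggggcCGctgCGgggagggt
Rims1 (chr1:22806109-22806408, - strand): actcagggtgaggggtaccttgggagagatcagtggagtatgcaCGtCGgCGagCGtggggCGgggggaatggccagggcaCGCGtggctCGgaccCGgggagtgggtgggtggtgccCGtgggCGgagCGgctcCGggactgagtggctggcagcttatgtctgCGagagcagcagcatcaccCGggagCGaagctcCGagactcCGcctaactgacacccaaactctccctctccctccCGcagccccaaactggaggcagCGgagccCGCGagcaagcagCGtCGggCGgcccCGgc

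The Rims1 window, touched by H4K8ac in 6 of 6 lists, held 26 CpGs and was 69.3% G or C. The Slc17a8 window, touched by H3K27me3 in 6 of 6, held 7 CpGs at 58.0%. The Slc17a6 window, touched by H3K27me3 in 5 lists, held 8 CpGs at 53.7%, and that of Slc17a7, touched by neither mark in any list, held 13 at 63.7%. Cplx3 had 11 CpGs and Syt6 16, both with H3K27me3 in 6 of 6 lists. These windows were picked to show the marks, so their CpG counts are a description. Promoter sequences were at hand for 45 of the 58 members, in 61 windows. Their median CpG count was 18 against 14 for 20150 windows of protein-coding genes, and it was 17 in the 21 member windows touched by H4K8ac at least once, 11 in the 15 touched by H3K27me3 and 20 in the 25 touched by neither. Several of these windows overlap or belong to the same gene. The CpG-rich windows of Syt9 (49 CpGs, H3K27me3 in 1 list) and Syt2 (34, in 4 lists) were among the 15. Of 3 motifs searched on both strands (the first and last read the same on each), the CRE (TGACGTCA) stood in 1.64% of member windows against 2.31% of all, the TATA motif (TATAAA) in 4.92% against 12.1%, and the E-box (CACGTG) in 11.5% against 8.03%. The member window with the CRE was that of Syn1, and E-boxes stood in windows of Cplx3, Syt6, Cadps2, Nsf, Unc13b and Sv2b.

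Among the 10 calcium sensors, 9 had H4K8ac and 3 had H3K27me3 in some list. Over all protein-coding genes these shares were 52.0 and 28.1%, the background for the roles below too. Syt1, the sensor of fast synchronous release in forebrain neurons, carried 187 H4K8ac peaks over the 6 lists, more than any other member. There were 35 and 32 peaks in SIT, 23 and 46 in the left arm and 21 and 30 in the right arm, covering 87.1 and 50.6 kb, 43.6 and 77.1 kb, and 36.7 and 70.6 kb. Within the 513.3 kb gene 113 of 147 peaks (76.9%) lay past its midpoint, and 38 further peaks were intergenic. Over the same stretch lay further peaks given to other genes, and with them 194 of 269 (72.1%) lay past the midpoint. The peaks merged into 53 regions, of which 6 were found in all 6 lists and 23 in a single list. The longest of these, chr10:108593999 to 108614673, lay within the gene. Per length, summed over the lists, Syt1 held 28.5 assigned peaks per 100 kb of gene and upstream sequence. The load of the gene was larger than this, since 98 of those further peaks carried the symbol Gm5136 and 24 Gm36283. No H3K27me3 peak was assigned to Syt1.

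Syt9, a fast sensor best known from striatal and limbic neurons, was the reverse of Syt1. It had 97 H3K27me3 peaks and no H4K8ac peak. There were 19 and 11 in SIT, 24 and 13 in the left arm and 7 and 23 in the right arm, covering 133.1 and 56.1 kb, 86.8 and 41.9 kb, and 22.0 and 106.0 kb. Of these, 63 lay in the gene or its 3 kb upstream and 28 were intergenic. One merged block of 47922 bp inside the gene, chr7:107483490 to 107531411, was present in all 6 lists, and Syt9 held 4 of the 14 member regions methylated in every list. Its start site lay inside a peak only in SIT exercised. Per length it held 34.8 H3K27me3 peaks per 100 kb, beside 64.5 for the short Cplx3, 40.2 for Rims3, 21.8 for Syt6, 15.4 for Slc17a6 and 12 for Slc17a8.

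Syt6 had 36 H3K27me3 peaks, with 8 and 4 in SIT, 5 and 5 in the left arm and 5 and 9 in the right arm. An annotated start site lay inside one in all 6 lists, and 20 of the 36 were intergenic. Its only H4K8ac peak, of 1356 bp in SIT exercised, lay 35.6 kb from the nearest annotated start. Syt2, the fast sensor of hindbrain and many inhibitory synapses, had 3 and 1 H3K27me3 peaks in SIT, 1 and 0 in the left arm and 0 and 1 in the right arm, 5 of the 6 at promoters. Its H4K8ac peaks were 2, both in left sedentary. Syt2 and Syt6 were thus marked mainly by methylation.

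Syt7, a slow high-affinity sensor of asynchronous release, had H4K8ac in all 6 lists, with 5 and 2 peaks, 1 and 7, and 4 and 3. Syt3, Syt5 and Doc2a had 1 H4K8ac peak at most in any list, each at a promoter and over a start site. Syt10 had between 0 and 3. Doc2b also appeared in all 6 H4K8ac lists, with 4 and 1, 2 and 3, and 1 and 2 peaks, yet none of its 13 peaks lay in Doc2b or within 3 kb upstream. Of these, 12 lay over the neighbouring Rph3al, an effector of Rab3 and Rab27, and were given to Doc2b because its start was nearest.

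The 6 other synaptotagmins, which bind calcium weakly or not at all or act outside fast release, were all acetylated somewhere, and 3 of them (Syt13, Syt16 and Syt17) in all 6 lists. Syt13 had 12 and 11 H4K8ac peaks in SIT, 5 and 20 in the left arm and 6 and 6 in the right arm, covering between 9.4 and 33.5 kb. Only 16 of its 60 peaks lay in the 41.0 kb gene or just upstream, and 38 were intergenic. Syt16 had 13 and 8, 4 and 14, and 5 and 7 peaks, covering between 6.8 and 28.5 kb, and 50 of its 51 lay in the gene. Syt4, a synaptotagmin of dense-core vesicles whose gene responds to activity, had 3 and 0, 1 and 2, and 1 and 3 peaks. Its start site lay inside a peak in each of the 5 lists that held it, and it was missing only from SIT sedentary. At 79.4 H4K8ac peaks per 100 kb this short gene had the most assigned peaks per length of any member, ahead of Vamp2 (72.5), Cplx2 (57.7) and Rab3a (57.1). Syt12 had 1 peak in SIT exercised and 1 in left sedentary. Syt11 had 1 assigned peak, in SIT sedentary, but a peak lay over its start in 3 lists, in 2 of which the peak was assigned to the neighbouring 5830417I10Rik. The single H3K27me3 peak of the group, at Syt17 in SIT exercised, was intergenic, 9.6 kb upstream of the nearest start and 18.2 kb from the closest H4K8ac peak of that gene.

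Of the 11 SNAREs and their regulators, 9 had H4K8ac and only Cplx3 had H3K27me3. Snap25, the membrane SNARE of the terminal, had 7 and 10 H4K8ac peaks in SIT, 5 and 12 in the left arm and 7 and 9 in the right arm, covering 21.1 and 16.4 kb, 9.6 and 25.6 kb, and 14.1 and 22.5 kb. Of its 50 peaks 37 were intergenic and 10 lay in the gene or just upstream. Of its 15 merged regions, 4 were found in all 6 lists. The region chr2:136710187 to 136717396 spanned the start site. The regions chr2:136646144 to 136649127 and chr2:136676739 to 136680711 stood 64.3 and 32.7 kb upstream, and chr2:136797247 to 136805247 stood beyond the far end of the gene. Sequence outside Snap25 thus held 3 of its 4 regions found in every list.

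Stxbp5, which encodes tomosyn, an inhibitor of SNARE assembly, had 16 and 20 H4K8ac peaks, 6 and 18, and 7 and 12, covering between 11.7 and 41.1 kb. Of its 79 peaks 31 lay in the gene or just upstream, and 45 of the other 48 lay over the long non-coding RNA gene Gm28905 beyond its start. Stxbp5l, its paralogue, had 2 and 0, 0 and 3, and 0 and 1 peaks. All 6 were intergenic, between 38.2 and 75.7 kb upstream, so none of these lay in the gene or its promoter. A peak over the gene itself, in 1 list, was assigned to Polq.

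The complexins differed among themselves. Cplx2 had 8 and 2, 3 and 12, and 3 and 6 H4K8ac peaks, covering between 3.4 and 25.4 kb, and 24 of 34 were intergenic. The window at its RefSeq start, chr13:54302306 to 54302605, lies upstream of the GENCODE extent used here and was touched by H4K8ac in 5 lists. Cplx1 had 1 H4K8ac peak in SIT exercised, left sedentary and right sedentary, over the start site each time. Cplx3, the complexin of ribbon synapses and some forebrain neurons, had 1 H3K27me3 peak in each of the 6 lists, over the start site, covering 5.1 and 4.1 kb, 3.6 and 4.5 kb, and 1.4 and 5.3 kb. Vamp2, the main synaptobrevin, had 1 H4K8ac promoter peak in every list but left sedentary. Vamp1 had 1 and 2, 0 and 2, and 0 and 0, all at the promoter, although peaks lay over the gene in 5 lists, 4 of them assigned to its neighbour Tapbpl. Nsf, the ATPase that takes spent SNARE complexes apart, had 1 and 1, 0 and 9, and 0 and 0. Napb, its adaptor, had 2 and 0, 0 and 3, and 1 and 0, with the start site inside a peak in each of those 3 lists.

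Active zone and priming genes, the largest role, held the most H4K8ac peaks of any role, 461, and 12 of 13 were acetylated in some list and 6 in all 6. The shares were 52.0 and 12.4% over all protein-coding genes, and 84.6 and 40.7% over those longer than 100 kb, as most of this role are. Erc2 (ELKS2) had 32 and 22, 7 and 42, and 5 and 10 peaks, covering 65.7 and 25.7 kb, 13.4 and 68.1 kb, and 6.6 and 22.5 kb. Of its 65 merged regions 1 was in all 6 lists and 38 were in a single list. Rims1, the RIM scaffold that recruits calcium channels and Munc13, had 20 and 17, 7 and 20, and 9 and 10 peaks, covering between 13.0 and 41.6 kb. Only 12 of its 72 peaks in the gene (16.7%) lay past the midpoint, or 19 of 89 (21.3%) with peaks given to other genes, the opposite lean to Syt1, and the promoter window printed above was touched in all 6 lists. The region around it, chr1:22802935 to 22807945, was 1 of 3 Rims1 regions found in every list. Per length Erc2 and Rims1 were alike, at 13.5 and 13.8 assigned peaks per 100 kb.

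Cadps (CAPS1), which primes dense-core and synaptic vesicles, had 26 and 23, 7 and 17, and 11 and 13 H4K8ac peaks, all 97 in the gene, covering between 16.0 and 61.3 kb. Cadps2 had 16 and 14, 2 and 15, and 2 and 12, covering between 2.7 and 28.1 kb. Past the midpoint lay 74 of the 97 peaks of Cadps (76.3%) but 19 of the 53 in-gene peaks of Cadps2 (35.8%), or 19 of 90 (21.1%) with peaks given to other genes. Pclo (Piccolo) had 2 to 12 peaks and Rims2 2 to 11 in each of the 6 lists. Bsn (Bassoon) had 1 and 4, 1 and 5, and 1 and 0, yet 28 more peaks over the gene were assigned to 4930447F24Rik, and counting these Bsn was covered in all 6 lists. Erc1 had 3 and 2, 0 and 3, and 0 and 0, and Unc13b (Munc13-2) 0 to 2. Unc13a (Munc13-1), the main priming factor of the forebrain, had a single peak in SIT exercised and in left sedentary, with peaks assigned to neighbours over it in a further pair of lists.

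For H3K27me3 this group had 6 members listed, Cadps2 in all 6 lists and Rims3 and Rims4 in 5 each. Rims3 had 7 and 3 H3K27me3 peaks in SIT, 4 and 3 in the left arm and 0 and 7 in the right arm, covering 35.7 and 14.2 kb, 11.2 and 7.6 kb, and 0.0 and 19.0 kb, with 13 of 24 at promoters. Rims4 had 5 and 2, 3 and 1, and 0 and 4, and all 15 were intergenic, none over the gene in any list. Rims4 also had 1 H4K8ac peak in SIT exercised, 4.3 kb from the nearest annotated start. Cadps2 had 1 H3K27me3 peak in each SIT and left list and 2 in each right list, all 8 in the gene past its midpoint. Rims2 had 3 H3K27me3 peaks in SIT exercised and 2 in left exercised, all in introns 14.5 to 30.1 kb from a start. Unc13c (Munc13-3), which is chiefly cerebellar, had 2 in SIT exercised and 1 in right sedentary, and a start site lay inside a peak in both lists. Its 6 H4K8ac peaks all lay past the midpoint of the gene. The Cadps H3K27me3 peaks (SIT exercised, left exercised and right sedentary, 1 each) lay 169.5 to 170.7 kb upstream over a pseudogene.

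The Rab3 proteins, which tether vesicles for docking, and their effector rabphilin were all acetylated in some list. Rab3c had 7 and 7, 1 and 8, and 2 and 2 H4K8ac peaks. Rab3a, the most abundant form in brain, had 1 peak in 4 lists, SIT exercised, both left lists and right sedentary, 0.2 to 1.4 kb upstream of the start. Rab3b had 1 in each SIT list and in right sedentary. Rph3a had 0 and 0, 0 and 2, and 1 and 1, all at promoters. The only H3K27me3 peak of the group was intergenic, 18.4 kb upstream of Rab3c in right sedentary.

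Of the 9 vesicle membrane proteins and synapsins, 8 had H4K8ac and 3 had H3K27me3. Sv2c had 8 and 7, 2 and 9, and 3 and 3 H4K8ac peaks, and Sypl, a synaptophysin-like protein, 5 and 3, 2 and 5, and 1 and 2. Synpr (synaptoporin), typical of mossy fibre terminals, had 3 and 1, 0 and 7, and 1 and 1. Sv2b had 1 and 2, 0 and 8, and 2 and 4, and Sv2a 1 peak in each of left and right sedentary, over its start. Syn1 had a single H4K8ac peak in the whole series, of 1543 bp in right exercised, 0.4 kb upstream of its start. Syn2 had 2 and 5, 0 and 7, and 0 and 2. The H3K27me3 peaks of Sv2b numbered 4 and 0, 1 and 0, and 0 and 2, with 3 of 7 at promoters, and those of Sv2c 2 and 0, 0 and 0, and 0 and 1.

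Syn3, the third synapsin, was 1 of 2 members listed for both marks in all 6 lists, Cadps2 being the other. H4K8ac numbered 2 and 4 peaks in each arm. H3K27me3 numbered 10 and 2, 4 and 3, and 4 and 7, covering 48.2 and 7.3 kb, 13.8 and 10 kb, and 11.9 and 26.4 kb. The marks did not share ground: 17 of 18 H4K8ac peaks lay in Syn3 or just upstream, none of them past its midpoint (5 of 28 with peaks given to other genes), and none of the 30 H3K27me3 peaks lay there. Those 30 stood upstream of the start site, 10 of them intergenic and others over a cluster of pseudogenes or the long non-coding RNA gene Gm6729, and the gap to the nearest H4K8ac peak of the same list pair ran from 1.5 to 36.1 kb.

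Both endocytic members carried H4K8ac alone. Snap91 (AP180), which assembles the clathrin coat, had 3 and 2, 1 and 4, and 0 and 3 peaks, and Synj1, the phosphatase that sheds it, 1 and 3, 0 and 7, and 1 and 0.

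**Figure D2:**
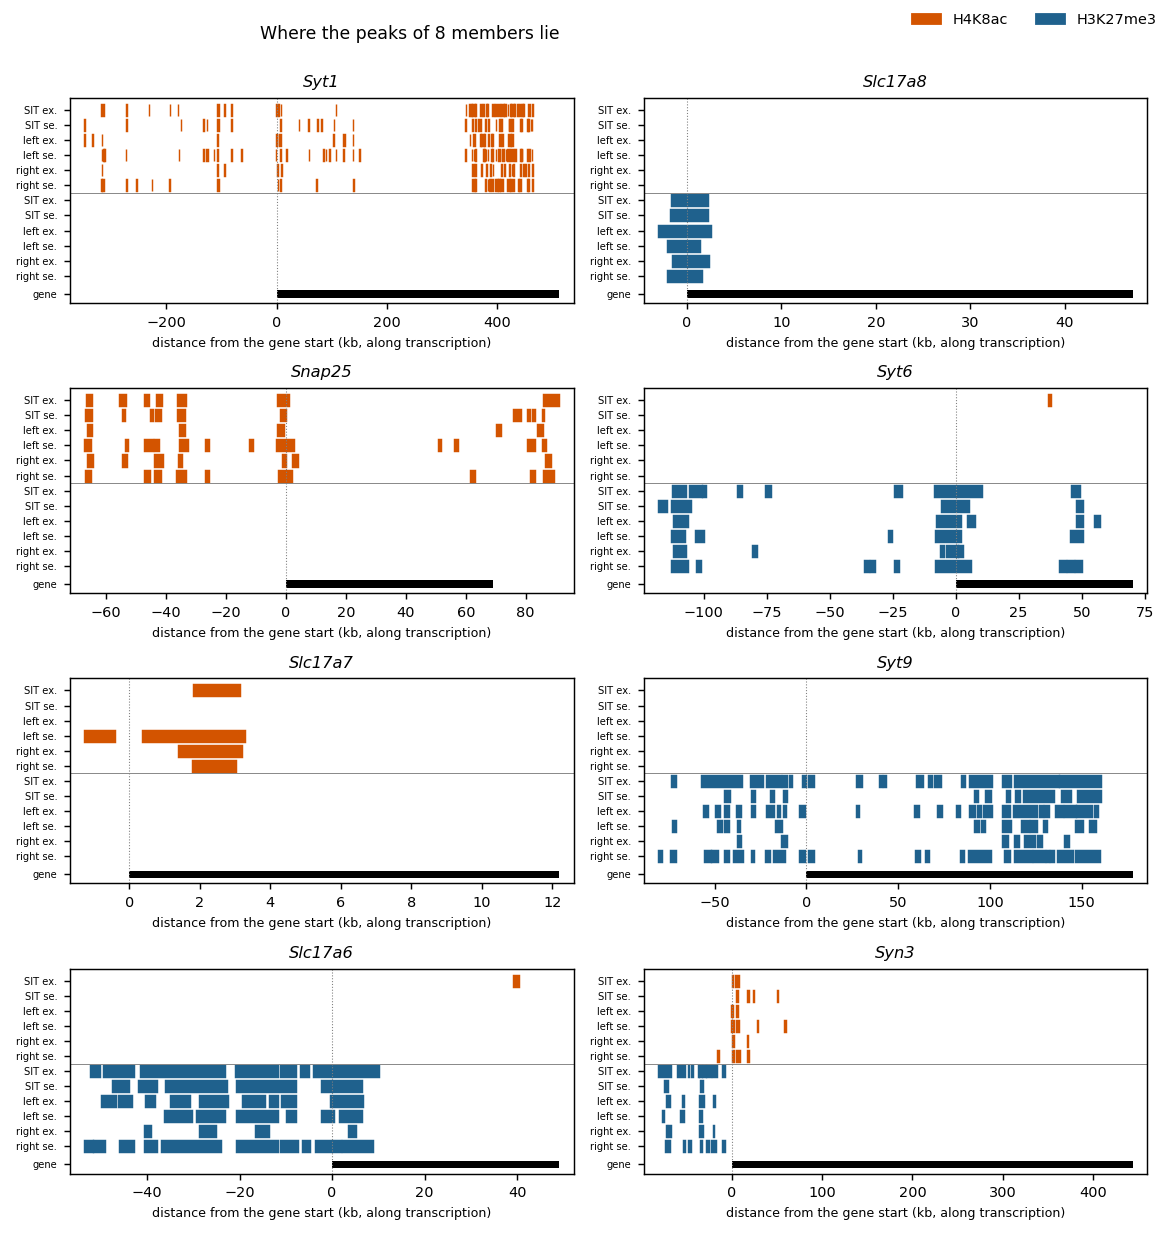
Peaks of 8 members drawn to scale by distance from the gene start along transcription (kb), one line per list, with H4K8ac in orange, H3K27me3 in blue and the gene as a black bar. The H4K8ac peaks assigned to Syt1 crowd past the midpoint of the gene, the H3K27me3 peaks of Slc17a6 run upstream over its neighbour, and in Syn3 the marks lie on opposite sides of the start, apart from 1 upstream H4K8ac peak in right sedentary.

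Where both marks were assigned to the same member in the same arm and condition, they lay apart. This happened at 11 members in SIT exercised, 2 in SIT sedentary, 4 in left exercised, 2 in left sedentary, 2 in right exercised and 7 in right sedentary. The matching shares were 19.0, 3.45, 6.9, 3.45, 3.45 and 12.1% of members, against 10.8, 4.97, 3.6, 7.18, 2.94 and 7.61% of all genes. Of the 1238 member H4K8ac peaks, 0 touched H3K27me3 of the same arm and condition. Over all H4K8ac peaks between 0.117 and 0.7% did, rates at which lists of 91 to 344 member peaks hold few overlaps or none. The gap between the marks was widest at Cadps2 in left exercised (454.3 kb), at Unc13c (229.8 and 245.6 kb) and at Cadps (210.2 to 239.6 kb). At Rims2 it was 111.6 and 163.1 kb, at Sv2b 34.8 and 157.8 kb, at Sv2c 20.3 and 23.5 kb and at Slc17a6 29.1 kb. It fell below 10 kb at Cadps2 in right sedentary (3.4 kb), at Syn3 in right sedentary and SIT exercised (1.5 and 7.8 kb) and at Syt6 in SIT exercised (7.9 kb). It was 16.9 kb at Rims4, 18.2 kb at Syt17 and 18.7 kb at Rab3c.

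The comparison of exercised with sedentary mice asks which release genes gained or lost a mark with ELE. For H4K8ac, SIT had 12 members listed only in exercised and 1 only in sedentary mice, with 34 in both. The gained genes were Syt4, Syt5, Syt6, Syt12, Stxbp5l, Cplx1, Napb, Rims4, Unc13a, Rab3a, Slc17a6 and Slc17a7, and the lost one was Syt11. Gained genes were 12.9% and lost genes 4.54% of all protein-coding genes, so the members, at 20.7 and 1.72%, leaned the same way as the genome. The gained share of changed members was 92.3% (exact binomial 95% interval 64.0 to 99.8, counting error over genes only), against 74.0% over all genes.

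In the left arm the lean was the other way. Only Vamp2 was gained and 20 members were lost, with 25 in both, against 1.45% of all genes gained and 21.3% lost. The gained share was 4.76% (0.12 to 23.8), against 6.38%. The losses were Syt2, Syt3, Syt10, Syt12, Vamp1, Stxbp5l, Cplx1, Napb, Nsf, Unc13a, Unc13b, Unc13c, Erc1, Rph3a, Synpr, Sv2a, Sv2b, Syn2, Slc17a7 and Synj1. They came from all 8 roles. In the right arm 6 members were gained (Syt3, Napb, Unc13b, Bsn, Syn1 and Synj1) and 10 were lost (Syt5, Syt10, Doc2a, Stxbp5l, Cplx1, Rab3a, Rab3b, Sv2a, Syn2 and Snap91), with 26 in both, against 3.24 and 12.7% of all genes. The gained share was 37.5% (15.2 to 64.6), against 20.3%. When the longer list of the pair was reduced to its widest peaks to match the shorter one, the right arm turned to 60% and the left rose to 33.3%, against 54.7 and 50.1% of changed genes overall under the same reduction.

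For H3K27me3, 6 members were gained in SIT (Syt17, Rims2, Unc13c, Cadps, Sv2b and Sv2c) and none was lost, against 10.3% of all genes gained and 0.242% lost. In the left arm 4 were gained (Syt2, Rims2, Cadps and Sv2b) and none was lost, against 4.01 and 1.99%. In the right arm none was gained and 8 were lost (Syt2, Rims3, Rims4, Unc13c, Cadps, Rab3c, Sv2b and Sv2c), against 0.68 and 10.4%. The gained shares of changed members were 100% (54.1 to 100), 100% (39.8 to 100) and 0.0% (0.0 to 36.9), against 97.7, 66.8 and 6.14% over all genes. Some calls rest on how peaks were assigned, and ended when any peak over the gene or its 3 kb upstream was counted. For H4K8ac these were Stxbp5l in SIT (which turned from gained to lost), Syt10, Syt12, Stxbp5l, Unc13a and Synpr among the left losses, Bsn among the right gains, and Stxbp5l and Rab3b among the right losses. For H3K27me3 they were Syt17 and Cadps in SIT, Cadps in the left arm, and Rims4, Cadps and Rab3c in the right arm. The same count added calls for H4K8ac, with Syt10 and Cplx2 gained in SIT, Syt13 and Syt17 lost in the left arm, and Unc13a and Sypl lost in the right arm, and added none for H3K27me3. In each of the 6 comparisons the side that held more changed members was the side of the longer list.

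**Figure D3:**
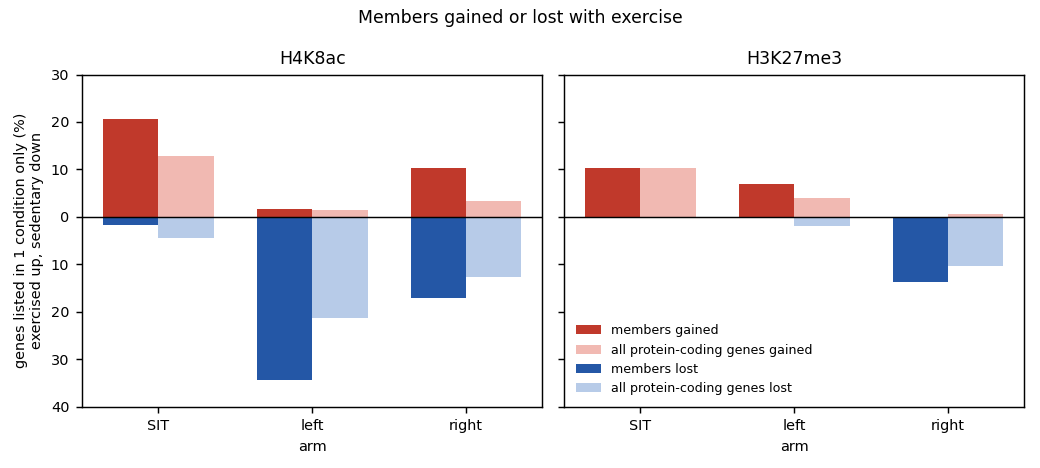
Share of genes listed in 1 condition only, exercised above the line and sedentary below it, for the 58 members (dark bars) and all 21911 protein-coding genes (light bars) in each arm. For H4K8ac, members were mostly gained in SIT (20.7%) and mostly lost in the left arm (34.5%); for H3K27me3 they were gained in SIT and left and lost in the right arm.

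No member was gained in all 3 arms or lost in all 3 arms, for either mark. For H4K8ac, Napb was gained in 2 arms, and Syt10, Stxbp5l, Cplx1, Sv2a and Syn2 were lost in both separate arms. Of those 5, Cplx1 and Stxbp5l were gained in SIT, so their direction turned between isolations, although for Stxbp5l on intergenic peaks alone. For H3K27me3, Rims2, Cadps and Sv2b were gained in both SIT and left, and Cadps and Sv2b were lost in the right arm. No member lost H3K27me3 in more than 1 arm.

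Peak numbers per member leaned the same way as the list lengths. For H4K8ac, 32 members had more peaks in exercised than sedentary mice in SIT and 9 had fewer; in the left arm 1 had more and 42 fewer, and in the right arm 7 had more and 27 fewer. The ratio of member peaks, exercised over sedentary, was 1.21 in SIT, 0.265 in left and 0.643 in right, beside 1.26, 0.334 and 0.545 for all peaks. For H3K27me3 it was 2.42, 1.68 and 0.338, beside 2.5, 1.26 and 0.454. The single member with more H4K8ac peaks in left exercised was Vamp2. In SIT, where 32 members had more peaks in exercised mice, Syt11, Snap25, Vamp1, Stxbp5, Bsn, Sv2b, Syn2, Syn3 and Synj1 had fewer.

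Counted by start sites, a stricter measure that needs the first base of an annotated protein-coding transcript inside a peak, the members' share lay above that of all genes in 5 of the 6 H4K8ac lists and below it in SIT sedentary. In SIT, H4K8ac peaks held a start site of 24 members in exercised and 5 in sedentary mice, which is 41.4 and 8.62%, against 21.6 and 9.45% of all genes. In the left arm the counts were 9 and 17 (15.5 and 29.3%, against 6.09 and 15.7%), and in the right arm 11 and 18 (19.0 and 31%, against 7.5 and 13.5%). In SIT 21 members gained an acetylated start site, against 14.4% of all genes, and 2 (Syt11 and Synj1) lost one, against 2.32%. The 21 were Syt1, Syt4, Syt5, Syt7, Syt12, Syt13, Snap25, Cplx1, Cplx2, Napb, Nsf, Rims2, Unc13a, Unc13b, Pclo, Erc2, Cadps2, Rab3c, Sypl, Synpr and Snap91. Of them Syt1, Syt7, Syt13, Snap25, Cplx2, Rims2, Pclo, Erc2, Cadps2, Rab3c and Sypl were listed for H4K8ac in both SIT lists and in every other list. For these the listing of the gene did not change while that of its start did. The 2 SIT sedentary peaks of Cplx2 were both intergenic, so none stood in the GENCODE extent of that gene, which leaves out its RefSeq start window. Peaks in SIT were also wider in exercised mice, with medians of 1808 bp against 1209 bp for member peaks and 1819 bp against 1265 bp for all peaks.

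In the left arm 3 members gained an acetylated start site (Syt1, Rims1 and Sypl), against 1.57% of all genes, and 11 lost one, against 11.2%. In the right arm 5 gained one (Syt3, Syt13, Vamp2, Napb and Unc13b), against 2.28%, and 12 lost one, against 8.29%. Cplx1, Rims2, Rab3c and Sv2a lost it in both separate arms, and Cplx1, Rims2 and Rab3c had gained it in SIT. No member had such an acetylated start site in all 6 lists, and Syt4 and Syt16 had one in 5. Starts of other transcript types were not counted. At Cadps a promoter peak lay over such a start in each of the 6 lists, in the region chr14:12402683 to 12411835.

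For H3K27me3 the start sites of Syt6, Cplx3 and Slc17a8 lay inside a peak in all 6 lists. In SIT 9 members had a methylated start site in exercised and 6 in sedentary mice, against 11.7 and 7.99% of all genes, with 3 gained (Syt9, Unc13c and Sv2b, against 3.92%) and 0 lost (against 0.256%). In the left arm there were 5 and 4, against 9.11 and 8.32%, with Syt2 gained (1.88%) and 0 lost (1.1%). In the right arm there were 3 and 7, against 5.78 and 11%, with 0 gained (0.155%) and 4 lost (Syt2, Unc13c, Sv2b and Slc17a6, against 5.43%). Over all lists 9 members were involved, namely Syt2, Syt6, Syt9, Cplx3, Rims3, Unc13c, Sv2b, Slc17a6 and Slc17a8. None of these 9 ever had an acetylated start site.

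**Figure D4:**
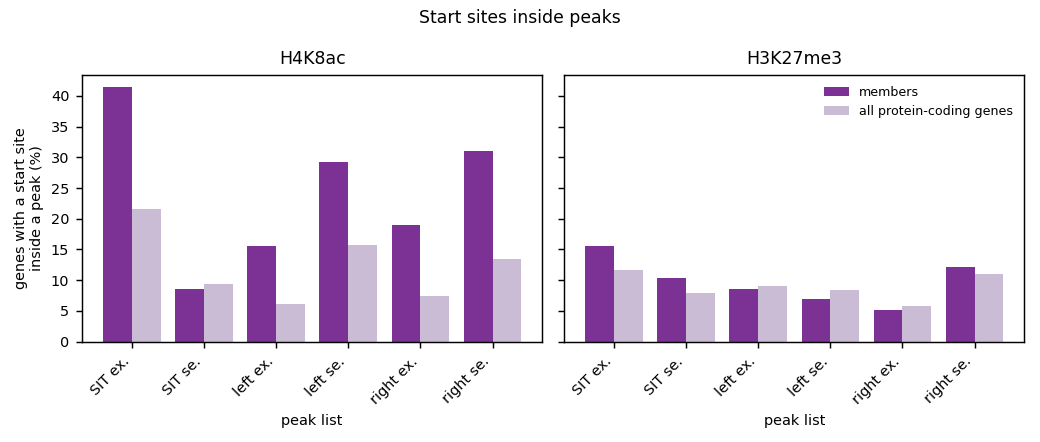
Share of members (dark bars) and of all protein-coding genes (light bars) with the start site of an annotated protein-coding transcript inside a peak, by list, for H4K8ac and H3K27me3. In SIT exercised 41.4% of the members had an acetylated start site against 21.6% of all genes, whereas in SIT sedentary the shares were 8.62 and 9.45%.

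The peaks themselves recurred less than the genes. For H4K8ac in SIT, 38.4% of the exercised and 49.2% of the sedentary member peaks overlapped a peak of the other condition by at least 1 bp, against 43.9 and 59.0% of all peaks. The shares were 68.1 and 18% in the left arm, against 73.1 and 25.2%, and 56.5 and 35.1% in the right arm, against 68.0 and 35.6%. For H4K8ac the member share lay below that of all peaks in each of these 6 lists, though only just so in right sedentary. For H3K27me3 the shares were 41.3 and 100% in SIT, against 37.2 and 98.1%, 52.6 and 82.4% in the left arm, against 61.4 and 82.1%, and 91.7 and 25.4% in the right arm, against 94.7 and 31.6%. Within one condition, the left and right sedentary H4K8ac lists shared 32.6% of the left and 64.9% of the right member peaks, against 46.2 and 64.1% of all peaks. For the exercised pair it was 38.5 and 34.3%, against 46.0 and 42.4%. Merged over lists, the H4K8ac peaks formed 564 regions, of which 25 (4.43%, against 5.99% of all regions) were in all 6 lists and 315 (55.9%, against 49.9%) in 1. The H3K27me3 peaks formed 76 regions, with 14 (18.4%, against 16.7%) in all 6 and 27 (35.5%, against 37.5%) in 1. Of the 25 acetylated regions Syt1 held 6, Snap25 4, Cadps, Rims1 and Stxbp5 3 each, Syt13 2, and Cplx2, Doc2b, Erc2 and Syt16 1 each. Of the 14 methylated ones Syt9 held 4, Slc17a6 3, Syt6 and Syn3 2 each, and Cplx3, Slc17a8 and Cadps2 1 each.

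By annotation, 945 of the 1238 H4K8ac peaks (76.3%) and 148 of the 292 H3K27me3 peaks (50.7%) lay in their gene or within 3 kb upstream. Introns took 56.2% of the members' H4K8ac peaks against 37.4% of all H4K8ac peaks, and promoters 16.7% against 23.5%. Distal intergenic sequence took 17.3% against 28.3% for H4K8ac and 32.5% against 45.3% for H3K27me3, where exons took 14.7% against 11%. The median distance to the nearest start was 28.8 kb against 22.1 kb for H4K8ac and 20.2 kb against 29.3 kb for H3K27me3. A few genes carried a large share of the peaks: Syt1, Erc2, Cadps, Rims1 and Stxbp5 held 564 of 1238 H4K8ac peaks (45.6%), and Syt9, Slc17a6, Syt6, Syn3 and Rims3 held 228 of 292 H3K27me3 peaks (78.1%).

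Among 65 other genes of the vesicle cycle, 64 were found by symbol, and 50 had H4K8ac in at least 1 list and 15 in all 6, against 52.0 and 12.4% of all protein-coding genes. H3K27me3 was listed at 15 of them, against 28.1%, and in all 6 lists at Stxbp6, Syt15, Cplx4 and Sytl2, against 10.7%. Syt15 had H3K27me3 in every list and H4K8ac in none, as Syt9 did among the members, and Slc32a1, the vesicular transporter for GABA and glycine, had H3K27me3 but no H4K8ac in any list. For H4K8ac 13 of the 64 were gained and 2 lost in SIT, 3 gained and 19 lost in the left arm, and 2 gained and 11 lost in the right arm. The shares of all genes were 12.9 and 4.54%, 1.45 and 21.3%, and 3.24 and 12.7%. For H3K27me3 the counts were 9 and 0, 2 and 2, and 1 and 5, against 10.3 and 0.242%, 4.01 and 1.99%, and 0.68 and 10.4%. These other genes leaned to the side of the longer list in 5 of the 6 comparisons, and split evenly for H3K27me3 in the left arm. All genes leaned to that side in each of the 6. Dnm1, the neuronal dynamin, was among the 13 gained in SIT.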

How the data were processed

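CUT&RUN-seq of H4K8ac and H3K27me3 was carried out on hippocampal nuclei, with 60 samples in the labels, of which 20 were IgG controls. The authors checked reads with FastQC 0.11.9, aligned them with Bowtie2 2.4.1, called peaks with SEACR in stringent mode and annotated them with ChIPseeker 1.8.6 on mm10, each peak going to its nearest start site and a promoter reaching 3 kb. The study states an exception for peaks that fall within a gene. In the lists some peaks over another gene still carried a member's symbol, such as 12 over Rph3al given to Doc2b. The 12 deposited lists hold positions, lengths and annotation only, with no score, signal, count or p-value. How the libraries of a group were combined is not given in the sources used here, and the authors had left out some exercised H4K8ac libraries and further samples of both conditions, the latter for RNA or outlier reasons that may or may not apply to these lists. Depth per sample is not given in the sources used here, and the spread between replicates cannot be had from these lists. Signal tracks and reads of single libraries were not analysed here.

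Groups came from the labels. A gene was listed when at least 1 peak carried its symbol, gained when listed in the exercised list alone and lost when listed in the sedentary list alone. The background was all 21911 protein-coding genes of GENCODE M21, in which 99.0% of the 31151 assigned transcripts were found, all with the same coordinates. Peaks of a mark that overlapped by at least 1 bp were merged into regions. Exact binomial 95% intervals cover counting error over genes only, and no test was run. The interval functions were tested on simulated data. Promoter sequences were RefSeq's, and 13 members had none in the table used (Syt4, Syt5, Syt7, Syt12, Syt13, Syt17, Snap25, Vamp2, Syn3, Rims2, Rims4, Doc2a and Doc2b). Python 3.11.15, pandas 2.3.3, numpy 2.4.6, scipy 1.17.1 and matplotlib 3.10.9 were used.

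The members and lists were chosen with earlier results of these data known. Genes were described in full when they were among the 10 with the most covered bases of those listed for a mark in all 6 lists, had both marks in one arm and condition, had no peak, led their role, or were Stxbp5l, Snap25, Syn1, Slc17a7 or Syt4. A gene gained or lost in all 3 arms would have been added, and there was none. Other members were named after their values were seen, to account for each. Alternatives were promoter peaks alone, no distal peaks, the widest 50% of peaks, equal list lengths, overlap with the gene or with a start site, and reciprocal overlap.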

Additional observations from a re-analysis of the deposited data

Results flagged for a closer look

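The gained share of changed members went opposite ways between arms under the same contrast of exercised with sedentary mice. For H4K8ac it was 92.3% in SIT, 4.76% in the left arm and 37.5% in the right arm. For H3K27me3 it was 100% in SIT, 100% in the left arm and 0.0% in the right arm. The differences between arms were not tested, since each arm and condition is 1 list, and the share of all genes went the same ways (74.0, 6.38 and 20.3%, and 97.7, 66.8 and 6.14%). Cplx1 and Stxbp5l turned from gained in SIT to lost in both separate arms for H4K8ac, and Cadps and Sv2b from gained in SIT and left to lost in the right arm for H3K27me3. The Stxbp5l peaks were all intergenic and the Cadps peaks all lay far upstream over a pseudogene, so neither turn was seen in peaks over the gene.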

How the results depend on the processing

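Of 56 alternative values, 42 kept their direction and stayed within the spread set for them. With both lists of a pair at equal numbers of peaks, the H4K8ac gained share turned from 37.5 to 60% in the right arm and rose from 4.76 to 33.3% in the left arm (54.7 and 50.1% over all genes); the cause was not tested. The 19 members with H4K8ac in all 6 lists became 4 with promoter peaks only, 11 with the widest 50% of peaks and 0 when the start site of a protein-coding transcript had to lie inside a peak, against 12.4% of all genes becoming 4.33, 6.17 and 1.69%. The 7 with H3K27me3 became 4, 3 and 3, against 10.7% becoming 6.01, 6.44 and 4.92%. Under an overlap of 50% of both peaks, sharing between conditions in SIT, left and right fell from 43.3, 28.5 and 43.5% of both lists' peaks to 15.6, 14.5 and 21.0% for H4K8ac, and from 58.5, 63.7 and 42.1% to 34.9, 39.6 and 10.5% for H3K27me3, since fewer overlaps count. Chosen after seeing the data, leaving out the exercised separate lists gave 25 and 9 members listed throughout (22.1 and 13.2% of all genes), and reducing all 6 lists to the length of the shortest gave 14 and 6 (7.84 and 9.04%). No paired analysis was possible because the lists pool the libraries of a group and carry no replicate number, and for the same reason no replicate could be left out. Depth per library is not known, so a member missing from a list was not detected there, no more, and list length went with the direction of change in every comparison. Assignment to the nearest start gave some members peaks that lie over neighbours and withheld others that lie over the member.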
